A study of Mus musculus with 18 samples.

Results

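The nuclear genes of mitochondrial complex I were followed as mRNA and as ribosome footprints in the macrophage-like mouse cell line RAW264.7. Members were all gene symbols beginning with Nduf that were listed in every library: 44 of the 10181 genes listed in all 18 libraries. They comprised 7 core subunits, 29 accessory subunits, 7 assembly factors (the genes named Ndufaf) and Ndufa4, whose protein is now assigned to complex IV. Another symbol, Ndufa4l2, was left out because it held 8 reads over 6 libraries. Each of 9 lysates gave a library of ribosome footprints from the monosome fraction and a library of fragmented cytoplasmic RNA, called input. All labelled cells received 200 µM 4-thiouridine (4sU), a uridine analogue that is built into new RNA and is read as a T-to-C conversion after chemical treatment. Experiment 1 had lysates at 0 (no 4sU), 20, 40, 60, 90 and 120 min, and experiment 2 had lysates at 20, 30 and 40 min. All cells were harvested in cycloheximide, which arrests elongating ribosomes, and no other genotype or treatment was compared. The labels do not say whether the lysates were separate cultures, so the p-values cover the spread among these lysates, which may be technical.

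Complex I, or NADH:ubiquinone oxidoreductase, passes electrons from NADH to ubiquinone and pumps protons across the inner mitochondrial membrane. Its core subunits carry the flavin, the iron-sulfur clusters and the proton channels. Those of the membrane arm are made inside mitochondria, while the core subunits named here form the matrix arm and are imported. Accessory subunits surround and stabilise this core, and assembly factors help to build the complex without remaining in it. Macrophages lower or redirect respiration on activation, and complex I is one of the sites where they make superoxide.

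Footprint libraries held 11771175 to 87536081 reads, and input libraries held 6230562 to 48139330. The 44 members took 0.535 to 0.632% of the reads of a footprint library and 0.404 to 0.620% of an input library, and no member had fewer than 128 reads in any library. In footprints the share was 0.535 to 0.545% in experiment 2 and 0.564 to 0.632% in experiment 1. In input it was 0.404 to 0.445% in experiment 2 and 0.541 to 0.620% in experiment 1, so the experiments did not overlap in either material and differed more in input. In bulk RNA, fewer cells carrying an mRNA and less of it per cell cannot be told apart. All 10 macrophage markers were listed in every library, with summed CPM (reads relative to the library total) of 10025 to 13553 in footprints and 6864 to 8629 in input. Lyz2 alone held 6315 to 8623 CPM in footprints and 3643 to 5296 in input. The lowest marker, Itgam, held 2.79 to 5.36 and 1.76 to 2.90. Of 19 genes that mark other cell types, 6 appeared in at least 1 library and 0 in every library, at a summed level of at most 1.27 CPM.

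**Figure D1:**
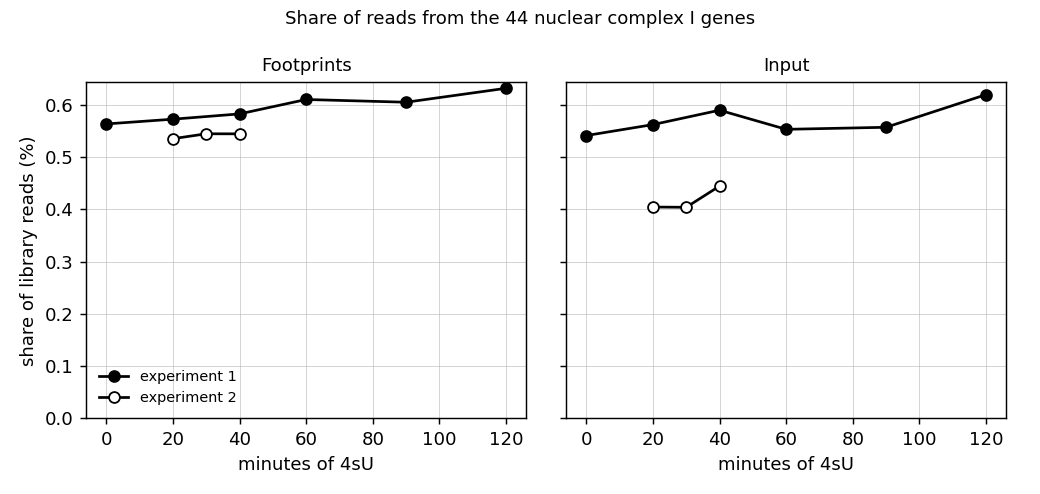
Share of library reads (%, vertical axis) from the 44 nuclear complex I genes against minutes of 4sU, in footprints (left) and input (right); each point is 1 library, filled for experiment 1 and open for experiment 2. The open circles in input lie at 0.404 to 0.445%, below every filled one.

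A feature that the choice of symbols did not use is the sequence around the start codon, where a minority of members hold a motif that is rarer over all genes. The sequence searched, any base, AA, any base, the start codon ATG and then GCGGC, contains the core of the translation initiator of short 5′ UTRs (TISU), an element described in mammalian genes with short leaders that places the start codon within a fixed context. In the GENCODE M21 principal transcripts, read on the coding strand only and with ATG as the start codon, it was present in 8 of 44 members (18.2%), against 173 of 9460 genes listed in all libraries (1.83%). The 9460 are those with at least 12 annotated bases before the start codon, of 9697 with an annotated coding sequence. Genes with shorter leaders were thus left out of these counts, while all 44 members were kept. The motif occurred in 3 of 7 core subunits and 5 of 29 accessory subunits, and in 0 of 7 assembly factors named Ndufaf. Among complex I assembly factors with other names 2 of 10 held it (20.0%), and among nuclear genes of complexes II to V 2 of 41 (4.88%). The overlapping shorter motif AAGATGGC was found in 10 members (22.7%), in 12.2% of the genes of complexes II to V and in 4.01% of all genes. The sequences below run from 12 bases before the start codon to the fifth codon, with the matched motif in capitals, for 6 of the 8 genes.
Ndufs3: acactaagGAACATGGCGGCggctgca
Ndufs7: gccgaggcCAAGATGGCGGCgctggcg
Ndufa6: ttcctcggCAAGATGGCGGCcgcggcc
Ndufa9: ttgtgggaGAAGATGGCGGCcgccgtc
Ndufs4: gcctacagGAAGATGGCGGCggtctca
Ndufs6: gtcaccggCAAGATGGCGGCggtgctg
The start codons of Ndufs3, Ndufs7, Ndufa6, Ndufa9, Ndufs4 and Ndufs6 lie, on mm10, at positions 90904647 of chromosome 2 (minus strand), 80249476 of chromosome 10 (plus), 82354228 of chromosome 15 (minus), 126849112 of chromosome 6 (minus), 114388056 of chromosome 13 (minus) and 73328446 of chromosome 13 (minus).
For contrast, the same windows are given for the accessory subunit with the highest footprint to input ratio (Ndufab1) and the assembly factors with the most labelled reads (Ndufaf1 and Ndufaf4), with only the start codon in capitals.
Ndufab1: gttggcgtagccATGgcgtctcgtgtc
Ndufaf1: ttttttcttacgATGgcaatgtcttcc
Ndufaf4: catgatttagagATGggggctcgcgtg
These start codons lie at positions 122101822 of chromosome 7 (minus strand), 119660583 of chromosome 2 (minus) and 24898167 of chromosome 4 (plus). The annotated 5′ UTRs of the 8 genes with the motif were 13 to 202 bases long with a median of 65.5, and the median of all members was 93 bases against 160 for all genes. Members also had short coding sequences, with a median of 510 bases against 1383. The 8 genes with the motif had a median log2 footprint to input ratio of 0.18, with a range of −0.40 to 0.60, and the other 28 subunits had a median of 0.46. These are descriptions of genes that share annotation, with no test.

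Footprints were compared with input to ask how densely ribosomes occupied each mRNA relative to its abundance. Of the 44 members, 29 had a higher share of footprints than of input, 6 had a lower share and 9 did not pass the test (edgeR quasi-likelihood, Benjamini-Hochberg adjusted p under 0.05 over 10110 genes). Over all tested genes 35.8% were called higher and 40.4% lower. The median log2 ratio was 0.36 over members and −0.04 over all tested genes. All levels are normalised CPM, a gene's reads relative to its library's total after TMM scaling, and the ratio is relative because both materials are scaled to the same total.

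The accessory subunits held the highest ratios: 21 of 29 were called higher and 3 lower, with a median log2 ratio of 0.48. Ndufab1, the mitochondrial acyl carrier protein, had 217, 276 and 381 normalised CPM in footprints (lowest, median and highest of 9 libraries), against 60.3, 82.7 and 111 in input. Every footprint library lay above every input library, and the log2 ratio was 1.74 (SE 0.09, edgeR adjusted p = 1.31e-10). Ndufa8, a cysteine-rich protein of the intermembrane space side, had 192, 208 and 255 normalised CPM in footprints, against 66.3, 93.5 and 127 in input. The materials did not overlap, and the log2 ratio was 1.22 (SE 0.08, edgeR adjusted p = 1.54e-09). The other accessory subunits among the 5 highest were the membrane-arm proteins Ndufb2 (log2 ratio 1.16, SE 0.16), Ndufb3 (1.12, SE 0.13) and Ndufa11 (1.09, SE 0.07). All 5 were higher in footprints in 9 of 9 lysates. Ndufab1 and Ndufa11 each have a named gene copy in the annotation (Ndufab1-ps and Ndufa11b), Ndufa11 overlaps Vmac and Ndufb2 overlaps Braf on the opposite strand, so reads of these genes may be shared with other loci.

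At the other end, Ndufa6 had 62.0, 66.7 and 89.2 normalised CPM in footprints, against 60.5, 98.1 and 123 in input. Its log2 ratio was −0.40 (SE 0.11, edgeR adjusted p = 0.00478), it was lower in footprints in 7 of 9 lysates, and the materials overlapped. Ndufb9 had 63.1, 75.1 and 99.7 normalised CPM in footprints, against 65.5, 106 and 134 in input, a log2 ratio of −0.38 (SE 0.11, edgeR adjusted p = 0.00562) that was below 0 in 9 of 9 lysates. Both proteins belong to the LYR family and each binds a copy of the acyl carrier protein encoded by Ndufab1, the member with the highest ratio. Ndufb5, a membrane-arm subunit that overlaps Mrpl47 on the opposite strand, was also lower (log2 ratio −0.28, SE 0.12, edgeR adjusted p = 0.0425). Ndufb8 and Ndufb7 complete the 5 lowest, at log2 ratios of −0.11 and 0.00, and did not pass the test.

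Core subunits stood closer to the typical gene. Of the 7, 3 were called higher and 0 lower, with a median log2 ratio of 0.18. Experiment 2 alone called 5 higher and 0 lower (median 0.37), and experiment 1 alone called 2 higher and 2 lower (median 0.05). Ndufs8, which carries iron-sulfur clusters near the quinone site, had 156, 170.4 and 211 normalised CPM in footprints, against 94.9, 133 and 176 in input, a log2 ratio of 0.46 (SE 0.08, edgeR adjusted p = 0.000138). Ndufs1, the largest subunit of the matrix arm, had 272, 295 and 373 in footprints, against 194, 251 and 297 in input, a log2 ratio of 0.33 (SE 0.08, edgeR adjusted p = 0.00261). Both genes were higher in footprints in 9 of 9 lysates, although the ranges of the materials overlapped. Ndufs3, a subunit of the quinone-binding module, had a log2 ratio of 0.18 (SE 0.07, edgeR adjusted p = 0.0362). Ndufs7, which holds the last iron-sulfur cluster before ubiquinone, had 0.18 (SE 0.10, adjusted p = 0.0936), and Ndufv1, which binds NADH and the flavin, had 0.06 (SE 0.09, adjusted p = 0.576). Ndufv2, an iron-sulfur partner of Ndufv1, had −0.14 (SE 0.11, adjusted p = 0.249). On the opposite strand Ndufs1 overlaps Eef1b2 and Ndufs3 overlaps Kbtbd4, so reads of these genes may be shared with other loci. In each lysate the median accessory subunit lay above the median core subunit, by 0.35 ± 0.08 on the log2 scale (SD, n = 9). The per-lysate median of the core subunits averaged 0.13, while their summed reads gave −0.08.

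The 7 assembly factors were divided, with 4 higher and 3 lower and all past the test. Their per-lysate median averaged 0.12, while their summed reads gave −0.38. Ndufaf5, which modifies Ndufs7 in human cells, had 24.4, 26.7 and 28.8 normalised CPM in footprints, against 38.4, 55.1 and 70.2 in input. Every footprint library lay below every input library, and the log2 ratio of −0.997 (SE 0.11, edgeR adjusted p = 1.02e-06) was the lowest of the 44 members. Ndufaf4, which acts with Ndufaf3 early in assembly, had 34.6, 40.6 and 53.4 in footprints, against 52.4, 61.1 and 89.8 in input, a log2 ratio of −0.65 (SE 0.11, edgeR adjusted p = 5.89e-05). Ndufaf6 was also lower (−0.29, SE 0.11, edgeR adjusted p = 0.0234). The higher ones were Ndufaf2, a relative of the subunit Ndufa12 (log2 ratio 0.47, SE 0.13), Ndufaf3 (0.46, SE 0.11), Ndufaf1, part of the membrane-arm assembly complex (0.38, SE 0.11), and Ndufaf7, a methyltransferase (0.22, SE 0.08). Ndufaf3 overlaps the highly expressed Impdh2 on the opposite strand, and the counting is not stated to use strand. Ndufa4 had 341, 392.2 and 534 normalised CPM in footprints, against 149, 242 and 314 in input, a log2 ratio of 0.83 (SE 0.13, edgeR adjusted p = 2.14e-05).

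**Figure D2:**
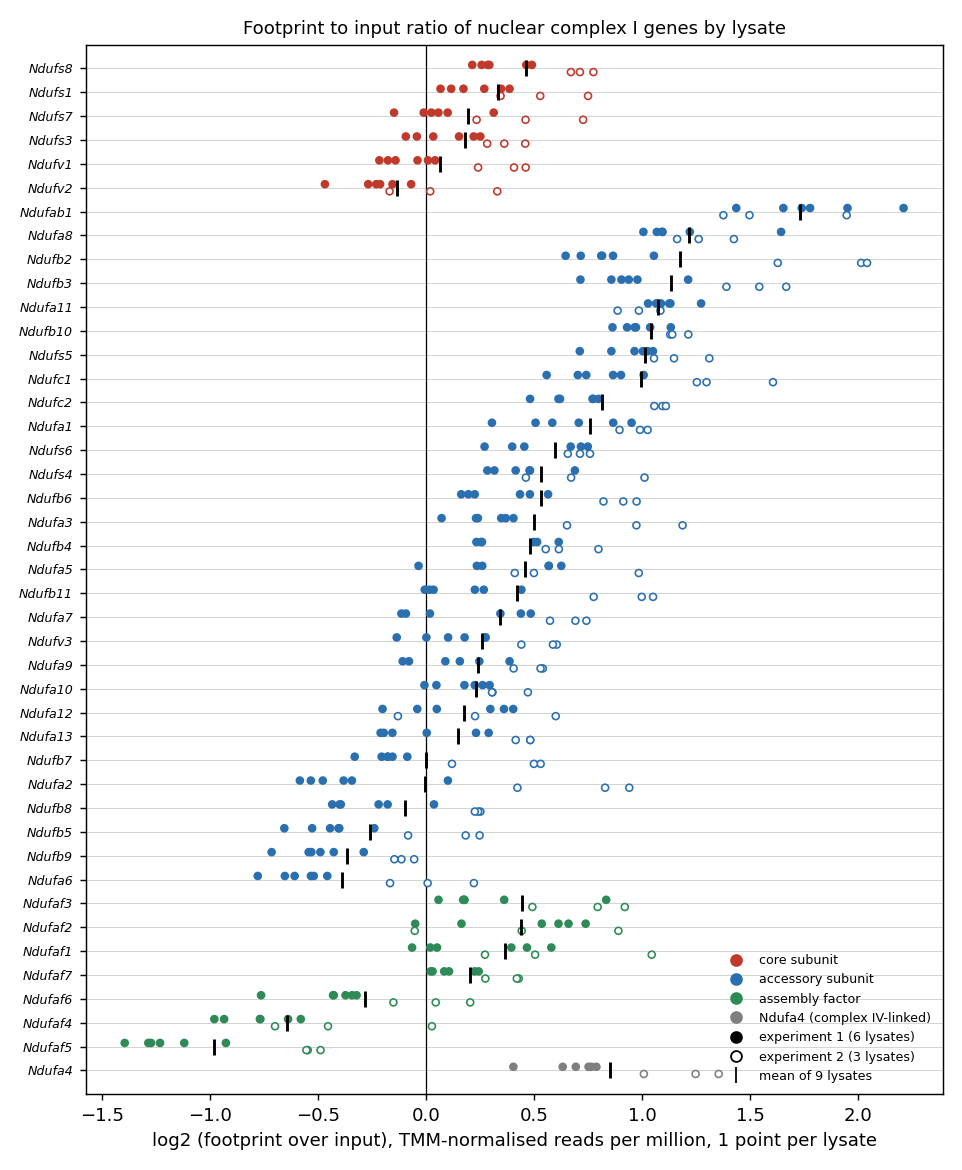
Log2 of footprint over input (horizontal axis, TMM-normalised CPM) for 43 of the 44 members; each point is 1 of 9 lysates, filled for experiment 1 and open for experiment 2, and the bar is their mean. Ndufab1 lies at 1.38 to 2.21, Ndufaf5 at −1.39 to −0.49, and most open circles lie to the right of the filled ones of the same gene.

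The ratios differed between the experiments: 41 of 44 members had a higher log2 ratio in experiment 2 than in experiment 1. That count was not made over all tested genes. In experiment 2 alone 35 members were called higher in footprints and 2 lower, the median log2 ratio being 0.63 (all tested genes 34.9% and 37.8%). In experiment 1 alone 23 were called higher and 11 lower, the median being 0.20 (all tested genes 35.6% and 41.5%). A test of experiment by material called a higher ratio in experiment 2 for 25 of 44 members and a lower one for 0, with a median difference of 0.40, against 13% and 12.7% of all tested genes and a median of 0.06. The largest differences were those of Ndufa2 (1.10, SE 0.15) and Ndufb2 (1.09, SE 0.12). For Ndufa2 footprints were 124 to 185 normalised CPM in experiment 2 and 90.6 to 155 in experiment 1, while input was 90.0 to 95.9 in experiment 2 and 131 to 197 in experiment 1. The pooled ratio of Ndufa2, 0.00, thus spans 0.73 in experiment 2 (adjusted p = 0.00025, edgeR) and −0.38 in experiment 1 (adjusted p = 0.00141). Ndufab1 and Ndufa11 differed by −0.18 (adjusted p = 0.424) and −0.13 (adjusted p = 0.35) between experiments. Of the 6 members with lower footprints over both experiments, Ndufaf5 and Ndufaf4 were also called lower in each alone, and Ndufa6, Ndufb5 and Ndufaf6 had log2 ratios of 0.02, 0.11 and 0.03 in experiment 2. The part of depth, which was higher in experiment 2, in this difference was not tested.

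Other genes of the pathway were compared from lists of fixed names. Of 42 nuclear genes of complexes II to V that were tested, 35 had higher and 0 lower footprints (median log2 ratio 0.63). The mitochondrially encoded core subunits, read by mitochondrial ribosomes, had 0 of 7 higher and 3 lower, with a median of −0.96, but the experiments differed: experiment 2 alone gave 0 higher and 7 lower (median −2.72), and experiment 1 alone gave 3 higher and 3 lower (median −0.06). Assembly factors with other names had 3 of 10 higher and 4 lower; Lyrm2 was at 0.45 and Ecsit, a partner of Ndufaf1, at −0.72. Of 76 mitochondrial ribosomal protein genes, 46 had higher and 10 lower footprints (median 0.36). Like the members, both nuclear lists had higher medians in experiment 2 alone than in experiment 1 alone. The medians were 0.88 and 0.53 for complexes II to V, and 0.57 and 0.21 for mitochondrial ribosomal proteins. Over genes, the mean log2 ratio ran against coding length, with a Spearman rho of −0.51 over the 44 members and −0.35 over 9628 genes. Genes are not independent replicates, and both values share their libraries.

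Levels per coding length were set side by side because the subunits of 1 complex are assembled in equal numbers, except the acyl carrier protein, which is present in more than 1 copy. In footprints the median of the 36 subunits was 289 normalised CPM per kb of coding sequence, and 31 of 36 lay within 2-fold of it. In input the median was 205, with 32 of 36 within 2-fold. Input reads were also divided by coding length alone, and whether reads from UTRs were counted is not given. The SD of the log2 level over the 36 subunits was 0.72 in footprints and 0.65 in input. Core subunits had a median of 220.4 in footprints and 198 in input, and accessory subunits had 338 in footprints and 216 in input.

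Among core subunits the footprint level per kb was highest for Ndufs8 (274 ± 26.1, SD, n = 9 libraries) and lowest for Ndufv1 (122 ± 13.9). Ndufv2 (239 ± 43.1), Ndufs3 (224 ± 26.6) and Ndufs7 (220.4 ± 30.6) differed by less than their spread. The highest accessory subunits were Ndufc2 (605 ± 74.8), Ndufab1 (594 ± 109) and Ndufb3 (577 ± 105), which also did not differ beyond their spread. The lowest was Ndufv3 (55.9 ± 6.91), for which the annotated principal transcript is a long isoform with a coding sequence of 1404 bases, so its level per kb depends on which isoform these cells use. Ndufa4 stood above all complex I members at 1667 ± 241.

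Assembly factors were lower on the whole but overlapped the subunits, with a median of 38.7 normalised CPM per kb in footprints and 36.7 in input. The median subunit was 7.47 times the median assembly factor in footprints and 5.59 times in input. The highest assembly factors in footprints were Ndufaf4 (79.9 ± 10.8) and Ndufaf2 (78.5 ± 19.5), and the lowest was Ndufaf7 (17.9 ± 1.05). In input Ndufaf4 (126 ± 22.1) reached the level of Ndufv1 (118 ± 24.1), and in footprints it did not (79.9 ± 10.8 against 122 ± 13.9). Annotated 3′ UTRs are 3029 bases long in Ndufaf4 and 85 in Ndufv1. Any input reads from them would raise the level per coding kb, so the comparison in input is limited. Taking 15 codons at each end off the coding length, with the reads unchanged, raised the SD to 0.84 in footprints and 0.73 in input. The shortest sequences lose the largest part of their length, and reads near the ends were not removed.

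**Figure D3:**
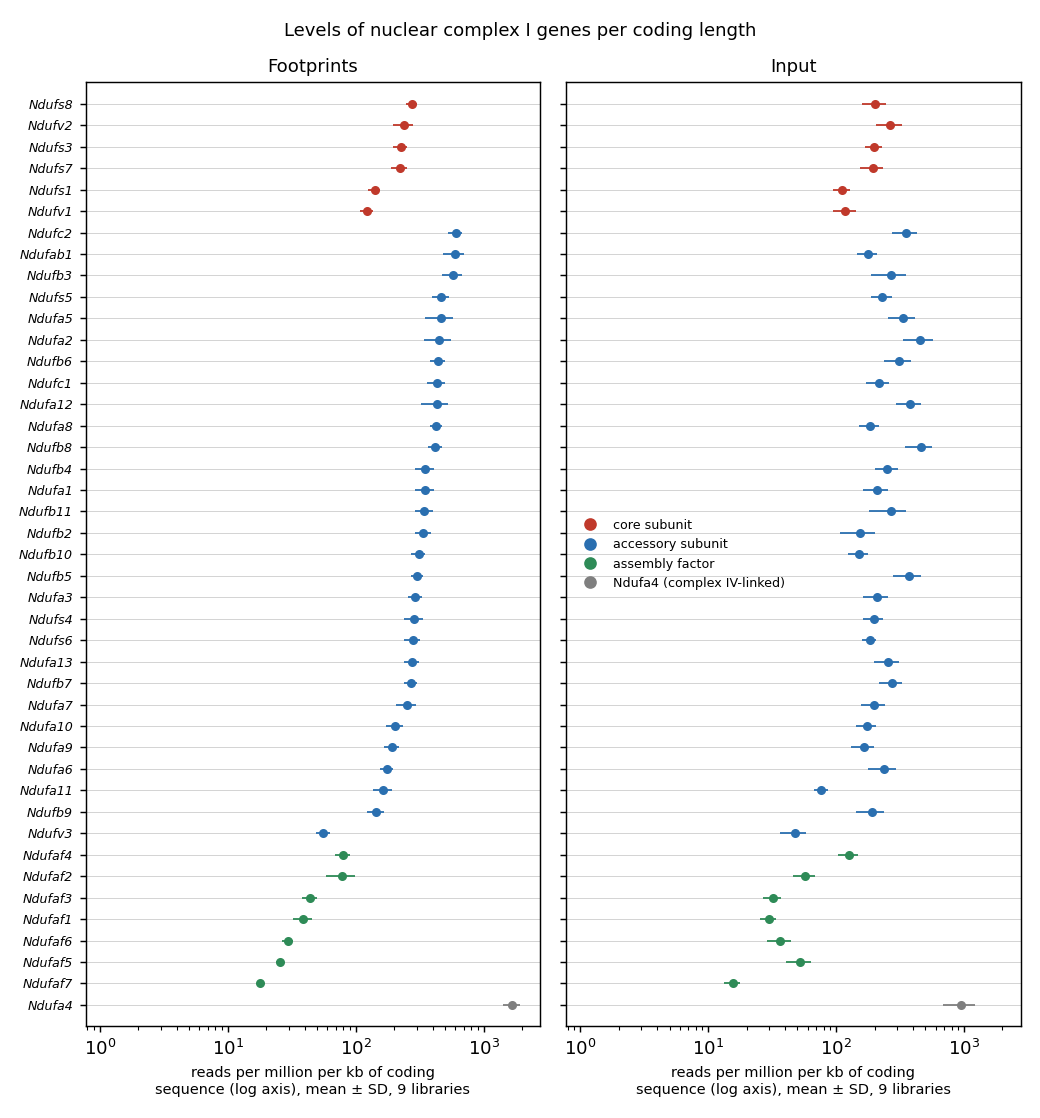
Level of 43 of the 44 members in TMM-normalised CPM per kb of coding sequence (log axis) in footprints (left) and input (right), as the mean ± SD of 9 libraries. In footprints most subunits lie within 2-fold of their median of 289, the 7 assembly factors at or below 79.9, and Ndufa4 at 1667.

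Conversion was used to ask how new the mRNA of each member was. Converted reads are those with 1 or more T-to-C conversions. At 120 min 2.92% of the footprint reads of all members were converted (95% Wilson interval 2.82 to 3.02) and 3.98% of their input reads (3.79 to 4.18). The whole libraries stood at 5.54% in footprints and 8.07% in input. Without 4sU the members were at 0.348% in footprints and 0.295% in input, and the libraries at 0.298% and 0.289%. Reads of members held 6.34 to 6.84 T positions on average and reads of whole libraries 6.29 to 6.87. The intervals cover counting error only.

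At 120 min each subunit held a smaller share of converted reads than its library, and 3 assembly factors held a larger one. In summed reads at 120 min, core subunits reached 2.55% in footprints and 3.58% in input, and accessory subunits 2.90% and 3.78%. Assembly factors reached 7.70% and 10.8%, but their median member was at 2.33% in footprints and 5.88% in input. The median accessory subunit was at 2.73% and 4.11%. Ndufaf4 alone reached 21.6% in footprints and 26.9% in input, and Ndufaf1 16.6% and 22.4%. Ndufaf3 followed at 7.63% and 10.2%, and the other 41 members did not exceed 4.64% in footprints and 6.99% in input. The shares of Ndufaf3 rest on few reads (475 in footprints and 131 in input without 4sU) and are given without an interval. For Ndufaf4 the share at 0, 20, 40, 60, 90 and 120 min of experiment 1 was 0.216, 0.476, 2.12, 6.92, 11.7 and 21.6% in footprints, and 0.405, 0.729, 3.65, 11.2, 15.5 and 26.9% in input. It was higher at each later time in both materials.

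**Figure D4:**
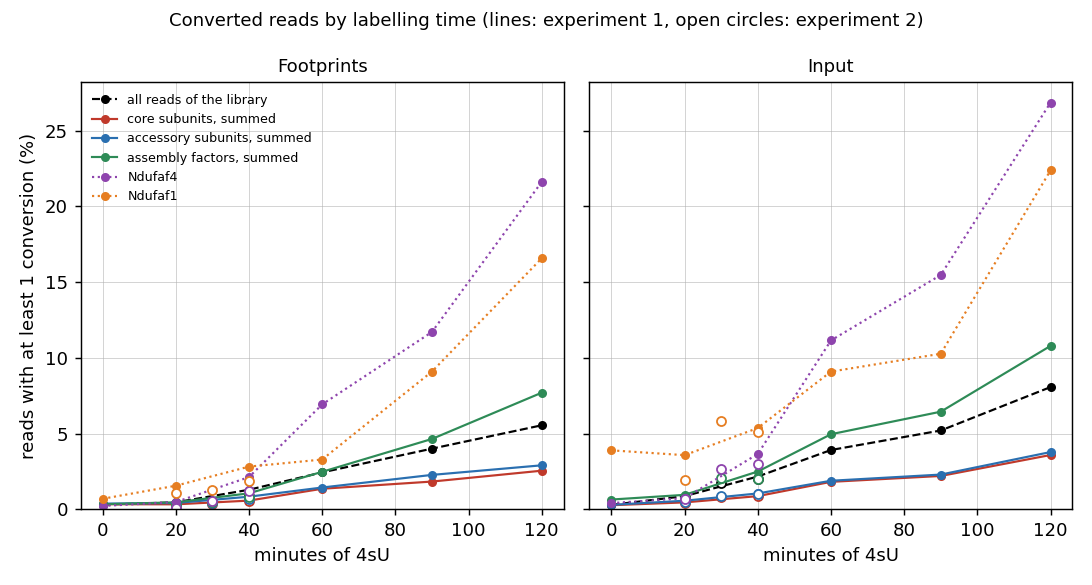
Reads with at least 1 conversion (%, vertical axis) against minutes of 4sU in footprints (left) and input (right), for whole libraries, summed classes, Ndufaf4 and Ndufaf1; lines join the libraries of experiment 1 and open circles are experiment 2. At 120 min core subunits (2.55% in footprints, 3.58% in input) and accessory subunits (2.90%, 3.78%) lie below the library line, and Ndufaf4 (21.6%, 26.9%) and Ndufaf1 (16.6%, 22.4%) above it.

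To compare genes within a library, the log2 odds of conversion were taken relative to the library median and tested against 0 by limma. In footprints 40 members had enough reads: 4 lay above the median gene and 27 below, with a median of −0.77 (all 6778 tested genes 32.5% and 32.6%). In input 40 members were tested, with 2 above and 33 below and a median of −0.95 (all 7045 tested genes 35.2% and 35.2%). The genes tested had passed a minimum of converted reads, so those left out were the least abundant or least labelled. These values average over labelling times. From 20 to 120 min of experiment 1 the members' median went from −0.32 to −1.50 in footprints and from −0.33 to −1.44 in input. Footprints at 20 min of experiment 2 were 0.313% converted (members 0.305%). That is near the 0.298% (members 0.348%) found without 4sU, so this library could show little difference in labelling.

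All 7 core subunits were below the median gene in input, and 6 of 7 in footprints. In footprints Ndufs7 was at −1.28 (SE 0.24, limma adjusted p = 0.000939) and Ndufv1 at −1.21 (SE 0.19, adjusted p = 0.000294), and Ndufs1 did not pass (−0.25, SE 0.36, adjusted p = 0.549). In input the lowest was Ndufv1 (−1.61, SE 0.22, limma adjusted p = 4.75e-05). Accessory subunits had 2 above and 20 below of 29 in footprints, and 0 above and 24 below of 28 in input. Ndufa10, a subunit related to nucleoside kinases, was the lowest in footprints (−1.61, SE 0.24) and next to lowest in input (−1.55, SE 0.21), where Ndufb7 was lowest (−1.77, SE 0.27). Ndufb3 was at −0.33 in footprints and −0.19 in input, and did not pass in either.

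Ndufaf1 was above the median gene in footprints (1.43, SE 0.21, limma adjusted p = 0.000176) and in input (1.62, SE 0.18, adjusted p = 8.51e-06). Ndufaf4 was above it in footprints (0.75, SE 0.30, limma adjusted p = 0.0433) and in input (1.00, SE 0.20, adjusted p = 0.000792). Ndufaf5 was below the median gene in input (−0.86, SE 0.24, limma adjusted p = 0.00643), Ndufaf6 in input (−0.31, adjusted p = 0.241) and Ndufaf3 in footprints (−0.61, adjusted p = 0.161) did not pass, and Ndufaf2 and Ndufaf7 were not tested in either material. The call of Ndufaf4 in footprints was lost with a term for experiment (0.59, adjusted p = 0.0549, limma) and without any 1 of 7 of the 8 labelled lysates, the 20 min lysate of experiment 2 being the exception; with the 60, 90 and 120 min lysates alone it was 1.52 (limma adjusted p = 0.000154). After subtraction of the unlabelled share Ndufaf4 had 0.67 in input (adjusted p = 0.0582, limma) and Ndufaf1 0.52 in footprints (adjusted p = 0.0727), and neither was tested in the other material.

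The other members above the median gene in footprints were Ndufa12 (1.26, SE 0.45, limma adjusted p = 0.0297) and the zinc-binding Ndufs6 (1.14, SE 0.36, adjusted p = 0.0157). The call of Ndufa12 was lost with experiment 1 alone (0.41, adjusted p = 0.436, limma), and without any 1 of 4 lysates (20 min of experiment 1 and all 3 of experiment 2), and that of Ndufs6 with experiment 1 alone (0.61, adjusted p = 0.233). Both already held converted reads without 4sU. Ndufa12 had 69 of 4266 footprint reads (1.62%, Wilson interval 1.28 to 2.04) and 9 of 1284 input reads (0.701%), and Ndufs6 had 27 of 1861 footprint reads (1.45%, 0.999 to 2.10) and 9 of 480 input reads (1.88%). At 120 min Ndufa12 reached 4.396% in footprints and 4.24% in input, and Ndufs6 4.44% and 4.62%, below the libraries. With the 60, 90 and 120 min lysates alone Ndufa12 was at −0.33 (limma adjusted p = 0.311) and Ndufs6 at −0.02 (adjusted p = 0.959) in footprints, and both were below the median gene in input, at −0.83 each (adjusted p = 0.00503 and 0.00563). The annotation holds a named copy of each, Ndufa12-ps and Ndufs6b, and Ndufs6 overlaps Mrpl36. Ndufaf1 had 7 of 180 input reads converted without 4sU (3.89%, 1.90 to 7.81) and 6 of 869 footprint reads (0.690%).

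**Figure D5:**
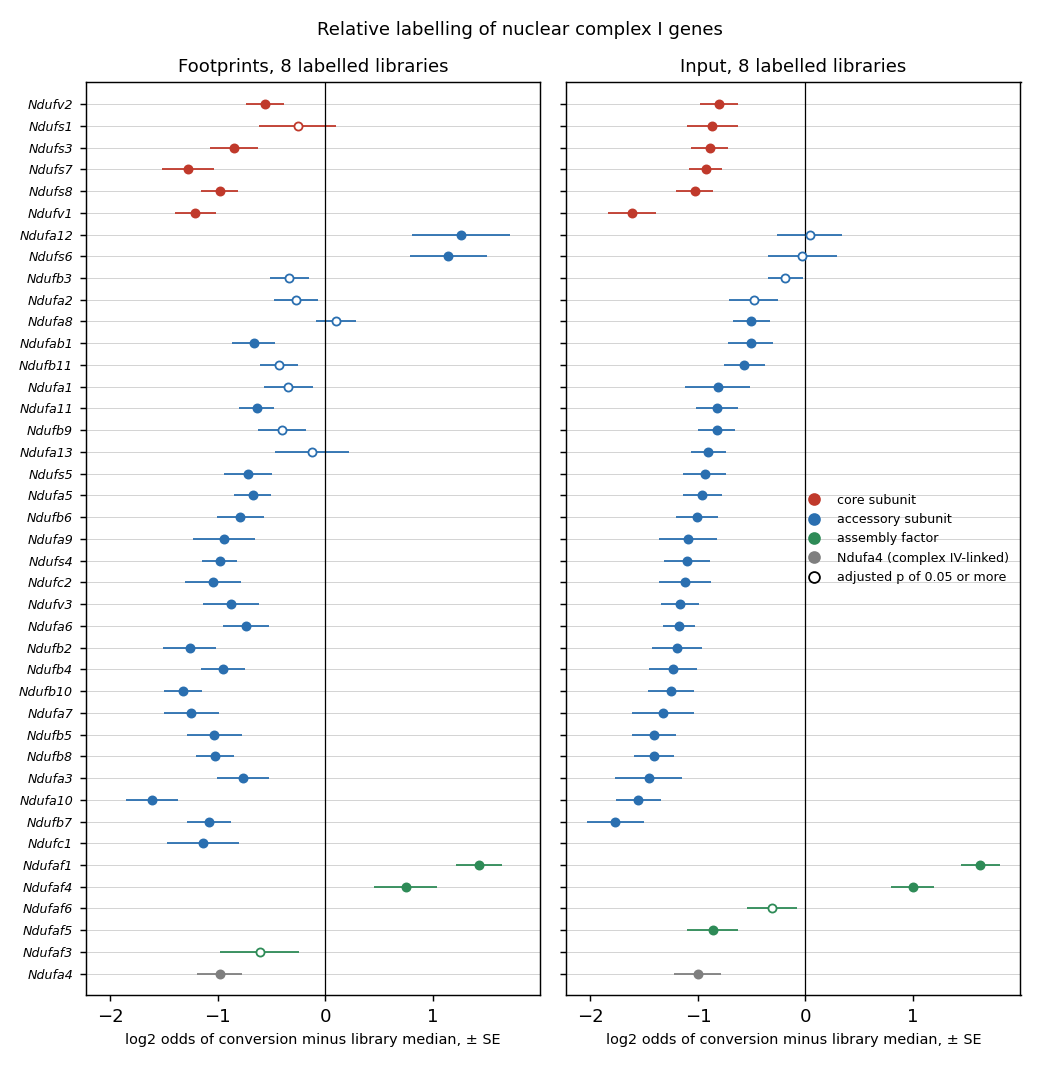
Relative labelling (log2 odds of conversion with the median of the library subtracted, ± SE) of tested members in footprints (left) and input (right), 8 labelled libraries each; open circles did not pass the test. In input every core subunit drawn lies at −1.61 to −0.81, and Ndufaf1 (1.62) and Ndufaf4 (1.00) lie above 0.

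Conversion was also compared between the materials, and the members stood near the background. Of 43 members tested, 0 had higher and 28 lower odds of conversion in footprints (edgeR adjusted p under 0.05), with a median log2 difference of −0.68. Over all 8276 tested genes 0.145% had higher and 59.4% lower odds, the median being −0.79. Core subunits had 6 of 7 lower, accessory subunits 16 of 29 and assembly factors 5 of 6. Among these, Ndufaf6 had −1.44 (SE 0.38, edgeR adjusted p = 0.000769), Ndufs7 −1.12 (SE 0.26, adjusted p = 0.000135) and Ndufaf4 −1.07 (SE 0.28, adjusted p = 0.000563). Measured relative to each library's median, 1 member was higher (Ndufs6, 1.16, limma adjusted p = 0.0417) and 0 lower, against 0.604% and 0.29% of all tested genes. Without that centring Ndufs6 was at 0.17 and did not pass (edgeR adjusted p = 0.546). Its reads without 4sU were already converted at 1.45% in footprints and 1.88% in input. The part of those reads in the call was not tested. With experiment 1 alone 11 of 42 members were lower in footprints, with a median of −0.41 (all tested genes 27.3%).

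Reads were also fitted against hours of 4sU, to see whether the members' levels changed over the labelling period. In footprints 19 of 44 members rose with time and 0 fell, against 7.13% and 14.2% of all tested genes (edgeR, 9664 genes). The median slope was 0.21 log2 units per hour for members and 0.01 for all tested genes. Of 42 nuclear genes of complexes II to V, 19 also rose and 0 fell (median slope 0.24). Of 76 mitochondrial ribosomal protein genes, 17 rose and 2 fell (median slope 0.14). The members that rose were 15 of 29 accessory subunits, 3 of 7 core subunits (Ndufv2, Ndufs3 and Ndufv1) and Ndufa4, and 0 of 7 assembly factors. The steepest slopes were those of Ndufa7 (0.36 per hour, SE 0.07, edgeR adjusted p = 0.00619) and Ndufb3 (0.34, SE 0.08, adjusted p = 0.0117), and Ndufaf1 (−0.18, SE 0.12) and Ndufaf4 (−0.15, SE 0.10) had negative slopes that did not pass. Without the 120 min lysate 0 members were called (all tested genes 0.0309% higher), and experiment 1 alone gave 12 (all tested genes 5.12%). Without the 90 min lysate 7 were called, and without the 20 min lysate of experiment 2 11. For these last counts the shares of all tested genes are not given. In input 0 members were called in either direction (0.475% and 6.51% of 9269 genes), with a median slope of 0.23; 8 had an unadjusted p under 0.05, and a fit with a term for experiment called 5 higher (all tested genes 4.14%). The slope of the footprint to input ratio was called for 0 members and for 0.0% of all tested genes by edgeR, with 0 members at an unadjusted p under 0.05 and a median of −0.01. With experiment 1 alone the median slope of the ratio was 0.10 (all tested genes 0.02), with 0 members called, and the median slope of input was 0.12. The slope of the ratio was then above 0 for 39 of 44 members, against 18 of 44 over both experiments. These counts were not made over all tested genes. Experiment 2 covered only 20 to 40 min, so time and experiment were partly confounded in these fits.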

How the data were processed

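The deposited values are the authors' raw read counts of each gene, divided by T positions and by T-to-C conversions in a read, as the column headings were read. Bowtie 0.12.8 and the build mm10 are named by the submitters' processing notes, while the sources used here do not give a counting program, strand use or annotation. Per the labels, fragments were 25 to 35 nt and depleted of ribosomal RNA. All 18 libraries were used.

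The members, lists and tests were chosen with earlier results of these data known. In each comparison every core subunit and assembly factor could be named, with the 5 highest and 5 lowest accessory subunits; the text names some of these, and others after their values were seen. Counts were fitted over all genes with edgeR 4.0.16 quasi-likelihood (TMM, filterByExpr, labelling time as a factor; conversion by edgeR's methylation design) and relative labelling with limma 3.58.1 (pseudocount 0.5, at least 50 mean reads and 50 converted reads). P-values are two-sided with Benjamini-Hochberg adjustment at 0.05. Scripts were tested on simulated data. Coding lengths came from GENCODE M21 in place of the planned protein lengths, all 44 members matched, and start codon windows were read from its transcripts. The input was saved from the footprints' lysate, per the labels' protocols. Profiles of 1 lysate correlated at 0.113 to 0.674 after removal of material means. An input correlated best with the footprints of its own lysate in only 3 of 9 lysates.
Alternatives included DESeq2 1.42.0, other filters and pseudocounts, blocks for lysate or experiment, each experiment alone and each lysate left out. The values of 1 member enter the counts and medians and are not reported here.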

Additional observations from a re-analysis of the deposited data

Results flagged for a closer look

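The footprint to input ratio differed between the experiments for 25 of 44 members by a test of experiment by material (edgeR adjusted p under 0.05), which was added after the data were seen. The log2 ratio was higher in experiment 2 for all 25, while 13% of all tested genes were called higher and 12.7% lower. The median difference over the 44 members was 0.40, against 0.06 over all tested genes. Related gene lists also had higher medians in experiment 2 alone than in experiment 1 alone. Those medians were 0.88 and 0.53 for nuclear genes of complexes II to V, and 0.57 and 0.21 for mitochondrial ribosomal proteins. The members' share of input reads was at most 0.445% in experiment 2 and at least 0.541% in experiment 1; of footprint reads it was at most 0.545% in experiment 2 and at least 0.564% in experiment 1. The cause was not tested. No single lysate of the 9 stood apart from the others in the ratio of any of the 44 members by Dixon's test.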

How the results depend on the processing

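Input was saved from the lysate of the footprints, so the lysate is a pairing; with lysate or experiment as a replicate block 30 members were higher and 6 lower in footprints than in input. Leaving out each lysate in turn gave 23 to 30 higher and 4 to 6 lower; experiment 1 alone gave 11 lower and experiment 2 alone 2. Ndufa6 (0.020), Ndufaf6 (0.034), Ndufb5 (0.11) and Ndufb8 (0.24) turned above 0 with experiment 2 alone, and Ndufb7 below 0 (−0.20) with experiment 1 alone. In experiment 2 alone the per-lysate median log2 ratio averaged 0.57 over members, 0.36 over core and 0.74 over accessory subunits. Summed reads of experiment 2 gave 0.10 for core, 0.48 for accessory subunits and −0.18 for assembly factors. Over both experiments summed reads gave −0.081 for core, 0.25 for accessory and −0.38 for assembly factors. The summed input labelling of assembly factors was 0.50 over both experiments. That value rests on only the 4 of 7 that passed the minimum of converted reads. Members whose input rose with time numbered 5 with the experiment block and 0 to 1 without single lysates. Those whose footprints rose numbered 7 with no filter, 12 with experiment 1 alone and 0 to 25 without single lysates (0 without 120 min). Relative labelling above the median gene was called in input for 0 members after subtraction of the unlabelled share and for 2 without each lysate, and in footprints for 0 after subtraction, 2 with experiment 1 alone, 2 at 60 to 120 min and 2 to 3 without single lysates. Below it, input gave 15 with experiment 2 alone and 28 to 33 without single lysates, and footprints 9 after subtraction, 10 with experiment 2 alone and 27 to 28 without single lysates. Ndufa12 turned to −0.83 in input and −0.33 in footprints at 60 to 120 min and −0.67 in footprints after subtraction, Ndufa8 to −0.76 after subtraction and Ndufs6 to −0.021 at 60 to 120 min, both in footprints. Lower conversion in footprints was called for 11 members with experiment 1 alone (all tested genes 27.3%), 5 at 60 to 120 min and 18 to 29 without single lysates. Most counts under these alternatives are given without the share over all tested genes. They therefore do not show whether the members changed more than other genes. Relative to the library median, which removes the shift shared by all genes, 1 was higher and 0 lower, and Ndufa4 (0.010), Ndufa7 (0.065), Ndufc2 (0.066), Ndufs3 (0.028), Ndufs8 (0.033), Ndufv1 (0.39) and Ndufv2 (0.23) turned above 0. Coding lengths less 15 codons at each end gave an SD of 0.84 in footprints and 0.73 in input and a subunit to assembly ratio of 7.12 in input. Subtraction and single experiments test fewer genes or samples; other causes were not tested. Few converted reads limit the labelling of Ndufaf2 and Ndufaf7.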
